A study of Macaca mulatta with 4 samples.

Results

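The nuclear-encoded respiratory chain genes of rhesus macaque (Macaca mulatta) morulae are described here across androgenetic (AG) and gynogenetic (GG) embryos. Members were the rows of the deposited count table whose symbol begins with NDUF, UQCR, ATP5 or COX followed by a digit, together with SDHA, SDHB, SDHC and SDHD. The rule found 63 genes among 21314 in the table, of which 14654 carried a symbol, and each member symbol had a single Ensembl identifier. They comprised 49 subunits or regulators of complexes I to V and 14 assembly factors, which are treated apart. The gene table of RefSeq holds 102 protein-coding symbols of the same pattern. Of these, 62 were members, and the other 40, among them UQCRFS1, UQCRQ, COX5B, COX6A1, COX8A, NDUFAB1 and ATP5PO, were not analysed here.

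By its title and labels the series studies imprinting in monkey embryos with a single parental genome. AG embryos hold nuclear chromosomes of paternal origin only, and GG embryos hold nuclear chromosomes of maternal origin only; both groups were collected at the morula stage, and no biparental embryo is among the 4 libraries. Each group had 2 libraries, made from total RNA with a SMARTer kit for ultra-low input. The number of embryos per library is unclear from the labels, which do not name their animals of origin, nor how the embryos were made, so the p-values measure the spread between these libraries, which may be technical.

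The respiratory chain sits in the inner mitochondrial membrane. Complex I oxidises NADH and complex II oxidises succinate, and both pass electrons to coenzyme Q. Complex III passes them on to cytochrome c and complex IV to oxygen, and complex V, the ATP synthase, makes ATP from the proton gradient this builds. Nearly all subunits are encoded in the nucleus and imported, while a small set is encoded in mitochondrial DNA, which the oocyte supplies. Cleavage-stage embryos rely largely on pyruvate oxidation, and mitochondria mature and oxygen use increases towards the blastocyst stage. These statements are background.

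The AG libraries held 14129608 (replicate 1) and 19108735 (replicate 2) estimated counts, and the GG libraries 21335918 (replicate 1) and 29733977 (replicate 2). CPM are read counts scaled by library total with the TMM adjustment explained below. All 8 matched embryo markers were present in every library. Their sums were 1543 to 1859.1 CPM in AG and 1168 to 1506 CPM in GG. Of these 8, 3 were called higher in AG with edgeR (ZSCAN4, KLF17 and DPPA4) and 3 higher in GG (TFCP2L1, ESRRB and DPPA2). The pluripotency factors POU5F1 and NANOG were not called. ZSCAN4, a gene of embryonic genome activation, gave most of the AG sum, at 1024 to 1325 CPM in AG against 1.33 to 3.23 CPM in GG. Of 7 matched blood cell markers, all had counts in some library, and their summed level was 69.0 to 146 CPM in AG and 13.1 to 16.4 CPM in GG, with 1 of 4 tested called, higher in AG. That gene, PTPRC, gave nearly all of the AG sum, at 65.9 to 141 CPM against 3.44 to 6.46 CPM in GG. LYZ lay the other way, at 0.427 to 1.27 CPM in AG and 5.37 to 9.82 CPM in GG, and was not called (edgeR adjusted p = 0.0533). CD74, a marker of antigen-presenting cells, had 0 to 2 counts in every library. The 6 matched cumulus and granulosa markers summed to 10.2 to 16.3 CPM in AG and 15.2 to 40.4 CPM in GG, with 0 of 2 tested called by edgeR or DESeq2 and 0 at an unadjusted p under 0.05. CYP11A1 gave most of these sums in 3 of the 4 libraries, at 3.21 and 15.8 CPM in AG and 13.1 and 29.3 CPM in GG, TNFAIP6 reached 10.5 CPM in GG replicate 2, and INHA was at 0 in 3 libraries. The 6 matched sperm markers summed to at most 1.21 CPM in any library, with 2 of them, PRM2 and ODF1, at 0 in all 4. The part of these markers in the results below was not tested.

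RNA of the nuclear-encoded members made up more of the counts in the GG libraries than in the AG libraries. Subunits not matched by symbol, nuclear or mitochondrial, are left out of this comparison. The 63 members took 1.29% of all counts in AG replicate 1, 1.67% in AG replicate 2, 2.34% in GG replicate 1 and 2.38% in GG replicate 2, and pairs of values below keep this order. Both GG libraries lay above both AG libraries. After scaling by TMM (trimmed mean of M values, which equalises the bulk of genes between libraries), the 59 members that passed the filter on low counts summed to 12944 and 16235 CPM in AG and to 23721 and 24174 CPM in GG. In bulk RNA of whole embryos, fewer cells of a type and less RNA per cell cannot be told apart.

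Gene by gene, 52 of the 59 tested members (88.1%) had a positive log2 fold change (log2FC, GG minus AG), against 51.1% of all 13227 genes tested. The median was 0.79 over the members and 0.04 over all genes. The GG libraries both lay above the AG libraries in 48 members (81.4%, against 33.4% of all genes), both lay below them in 3 (5.08%, against 30.7%), and the groups overlapped in 8. Every tested member had at least 25 counts in every library, so none passed the filter through 1 group alone. With edgeR at an adjusted p under 0.05 over all genes, 12 of 59 members were called (20.3%, against 12.9% of all genes). Of these, 11 were higher in GG (18.6%, against 6.34%) and 1 was higher in AG, where the share of all genes was 6.58%. At an unadjusted p under 0.05, 34 members were higher in GG, where 15.8% of all genes were.

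**Figure D1:**
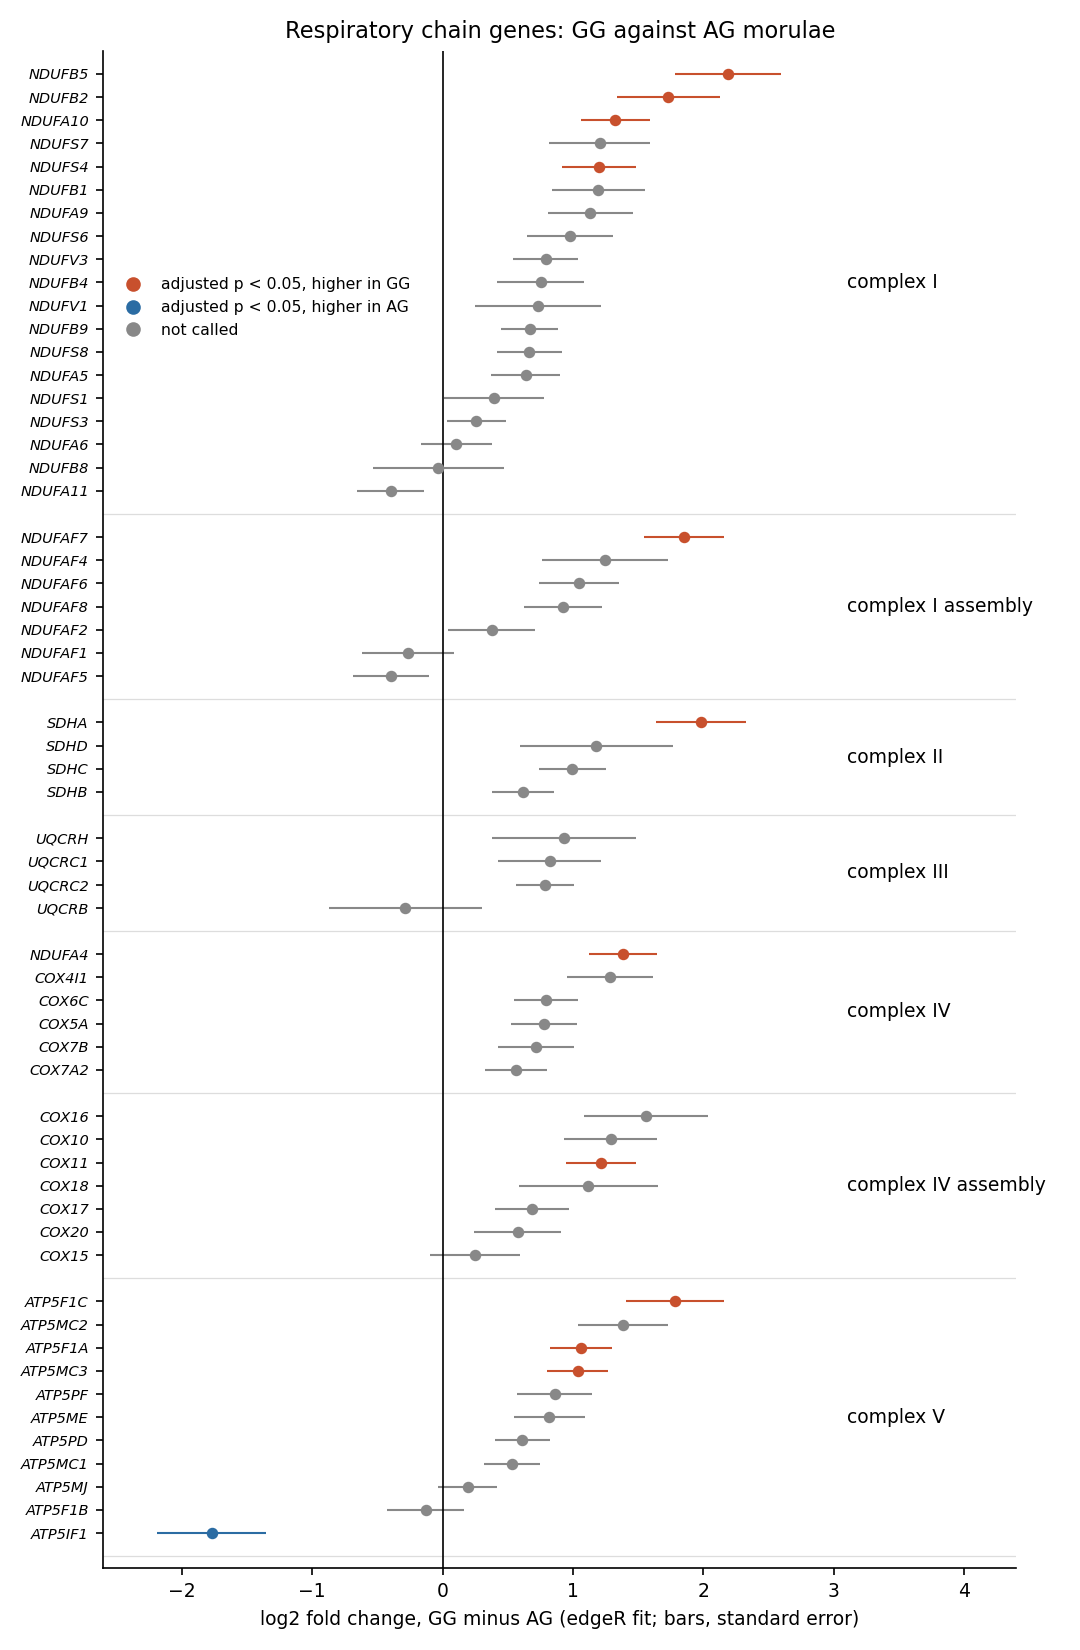
Log2 fold change (GG minus AG, edgeR, 2 libraries per group) of 58 of the 59 tested respiratory chain genes on the x axis, by complex; points are fitted values and bars are standard errors. Of the 58 points, 51 lie to the right of 0, the 11 called higher in GG are orange and ATP5IF1, called higher in AG, is blue at -1.77.

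These calls rested on few libraries. Without AG replicate 2, 36 members were called, 35 of them higher in GG, beside 26.7% of all genes, 14.2% higher in GG. Without AG replicate 1, 18 were called, 16 higher in GG and 2 higher in AG, beside 15.7% of all genes (8.05% in the GG direction, 7.69% in the AG direction). With either GG library left out, so that only the AG pair gave a spread, edgeR called 0 members, beside 0.851% and 0.602% of all genes. The median over the members lay between 0.68 and 1.04 in those 4 fits. DESeq2 called 23 members, 22 higher in GG and 1 higher in AG, beside 25.2% of all genes (12.2% in the GG direction, 13.0% in the AG direction). With the replicate number as a block, 10 were called, all higher in GG (6.61% of all genes). After thinning every library to the smallest, 13 were called, the 12 and ATP5MC2 (14.2% of all genes).

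Complex I, the NADH dehydrogenase, contributed 21 members, of which 20 were tested. Of these, 4 rose in GG, 0 fell and 16 were not called (20% called, against 12.9% of all genes). Positive fold changes were found in 18 (90%, against 51.1% of all genes), with a median of 0.74. The 4 that rose were all supernumerary subunits, the accessory proteins that surround the catalytic core. NDUFB5 (ENSMMUG00000009746), of the membrane arm, stood at 39.9 and 84.5 CPM in AG and reached 277 and 290.0 CPM in GG. The lowest GG library was thus more than 3 times the highest AG library. Its log2 fold change was 2.19 ± 0.41 (SE; edgeR adjusted p = 0.0310), the largest of any tested member.

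NDUFB2 (ENSMMUG00000015284), also of the membrane arm, stood at 88.2 and 181 CPM in AG and at 489 and 406 CPM in GG (log2FC 1.73 ± 0.39 SE, edgeR adjusted p = 0.0453). NDUFA10 (ENSMMUG00000010382), likewise a membrane arm protein, stood at 68.0 and 86.4 CPM in AG and at 187 and 199 CPM in GG (1.32 ± 0.26 SE, adjusted p = 0.0356). In both genes the GG libraries lay well above the AG libraries, and AG replicate 1 was the lowest. NDUFS4 (ENSMMUG00000004861), a subunit of the peripheral arm whose loss is a known cause of complex I deficiency, stood at 53.3 and 71.2 CPM in AG and at 149 and 137 CPM in GG (1.20 ± 0.28 SE, adjusted p = 0.0488). Its call ended with the replicate number as a block.

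The tested subunits of the catalytic core of complex I showed smaller differences. NDUFV2 and the mitochondrially encoded subunits had no row under their symbols and are not among them. Of the 6 tested, 0 were called with edgeR, beside 12.9% of all genes. An unadjusted p under 0.05 was found for 2, and DESeq2 called 1. All 6 fold changes were positive, with a median of 0.56 beside 0.88 over the 14 tested supernumerary subunits. The difference between these medians was not tested. NDUFS7, which carries the last iron-sulfur cluster before coenzyme Q, had the largest value of the core, at 24.3 and 34.4 CPM in AG and 51.1 and 84.4 CPM in GG (log2FC 1.21 ± 0.39 SE, edgeR adjusted p = 0.0961). NDUFV1 and NDUFS1, which take up electrons from NADH, had overlapping groups, with 27.6 and 65.1 CPM in AG against 61.8 and 91.9 CPM in GG for NDUFV1, and 90.4 and 176 CPM against 153 and 197 CPM for NDUFS1. NDUFS7, NDUFV1 and NDUFS1 were chosen after their values were seen.

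NDUFB4 was the complex I member with the most reads, at 337 and 607 CPM in AG and 862 and 729 CPM in GG. It was not called (log2FC 0.75 ± 0.33 SE, edgeR adjusted p = 0.185). The negative fold changes, chosen after their values were seen, were those of NDUFA11 and NDUFB8, and neither was called. NDUFA11, a membrane arm subunit, stood at 244 and 187 CPM in AG and 169 and 158 CPM in GG, the groups not overlapping (-0.40 ± 0.26 SE). NDUFB8 stood at 76.5 and 223 CPM in AG and at 145 and 148 CPM in GG, so that the AG libraries lay on either side of the GG libraries.

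Assembly factors of complex I, which build the complex and are not part of it, gave 1 call higher in GG among 7 tested and 0 higher in AG. The share called, 14.3%, was near the 12.9% of all genes. NDUFAF7 (ENSMMUG00000016434), a mitochondrial methyltransferase needed early in the building of complex I, stood at 20.9 and 27.4 CPM in AG and at 84.7 and 89.8 CPM in GG. The groups were far apart and the libraries of each close together (log2FC 1.85 ± 0.31 SE, edgeR adjusted p = 0.0261, the smallest of any member). NDUFAF6 stood at 36.0 and 51.1 CPM in AG and 91.9 and 88.1 CPM in GG, and NDUFAF8 at 27.2 and 32.5 CPM against 57.3 and 56.1 CPM. Neither passed over all genes (edgeR adjusted p = 0.0794 and 0.0972), and both were called by DESeq2. NDUFAF4, an early assembly factor, differed between the AG libraries, at 139 and 52.1 CPM, and stood at 243 and 209 CPM in GG. NDUFAF5 and NDUFAF1, chosen after their values were seen, had negative fold changes of -0.39 ± 0.29 and -0.26 ± 0.35 (SE) and were not called.

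In complex II, succinate dehydrogenase, which also belongs to the citric acid cycle, all 4 genes had GG libraries above AG libraries, and 1 was called. Over all genes, 33.4% had both GG libraries above both AG libraries and 12.9% were called. SDHA (ENSMMUG00000014452), the flavoprotein that oxidises succinate, stood at 31.3 and 50.7 CPM in AG and at 146 and 178 CPM in GG (log2FC 1.98 ± 0.35 SE, edgeR adjusted p = 0.0279). SDHB, its iron-sulfur partner, stood at 238 and 291 CPM in AG and at 433 and 376 CPM in GG (0.61 ± 0.24 SE, adjusted p = 0.143). The reads of SDHA relative to those of SDHB, which are not corrected for transcript length, were 0.132 and 0.174 in AG and 0.337 and 0.473 in GG. SDHC, a membrane anchor, stood at 83.3 and 91.7 CPM in AG and 159 and 189.9 CPM in GG, close to the threshold (0.995 ± 0.257 SE, adjusted p = 0.0578). SDHD, the other anchor, had 25 to 99 counts per library, at most 4.46 CPM, and its values were not whole numbers in any library, so its level is uncertain.

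Complex III, whose subunit CYC1 lies outside the symbol rule, had 4 tested members. With edgeR 0 of them were called, beside 12.9% of all genes. An unadjusted p under 0.05 was found for 1, as for 2086 (higher in GG) and 2150 (higher in AG) of all 13227 genes. DESeq2 called that 1, beside 25.2% of all genes. This was UQCRC2, a core protein, at 271 and 312 CPM in AG and 498 and 507 CPM in GG (log2FC 0.79 ± 0.22 SE, edgeR adjusted p = 0.0701). Its partner UQCRC1 stood at 142 and 301 CPM in AG and at 355 and 429 CPM in GG (0.82 ± 0.39 SE, adjusted p = 0.214). UQCRH, the hinge protein, had 64 to 408 counts per library, all of them not whole, and stood at 4.56 and 6.25 CPM in AG and 6.70 and 13.9 CPM in GG. As for SDHD, its row may hold only part of the gene's reads, so its level is uncertain. UQCRB, which borders the coenzyme Q site and was chosen after its values were seen, showed no common direction. It stood at 87.1 CPM in AG replicate 1, at 318 CPM in AG replicate 2 and at 180.1 and 152 CPM in GG. Without AG replicate 1 it was called higher in AG, with a log2 fold change of -0.95, and without AG replicate 2 it was called higher in GG, at 0.91.

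Complex IV, cytochrome c oxidase, had 9 members, of which 6 were tested. All 6 had GG libraries above AG libraries (against 33.4% of all genes), with fold changes from 0.56 to 1.39 on the log2 scale. Of the 6, 1 was called (16.7%, against 12.9% of all genes). NDUFA4 (ENSMMUG00000020894), named for complex I but a subunit of complex IV, stood at 266 and 371 CPM in AG and at 895 and 771 CPM in GG (log2FC 1.39 ± 0.26 SE, edgeR adjusted p = 0.0319). COX4I1, the ubiquitous form of the largest nuclear-encoded subunit, stood at 466 and 853 CPM in AG and at 1563 and 1652 CPM in GG. It did not pass over all genes (1.29 ± 0.33 SE, adjusted p = 0.0569), and it passed without AG replicate 1, without AG replicate 2, with the replicate block and with DESeq2.

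COX6C stood at 550.0 and 406 CPM in AG and at 860.0 and 792 CPM in GG (log2FC 0.79 ± 0.25 SE, edgeR adjusted p = 0.0890). COX7B stood at 376 and 239 CPM in AG and at 530.4 and 479 CPM in GG (0.72 ± 0.29 SE, adjusted p = 0.158). In both genes AG replicate 1 was above AG replicate 2, as in 3 of the 6 tested complex IV members but only 15 of all 59 tested members. COX7A2, the form of subunit 7A found in most tissues, stood at 518 and 673 CPM in AG and 919.5 and 841 CPM in GG (0.56 ± 0.23 SE, adjusted p = 0.166).

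Of the forms of these subunits known from particular tissues, COX7A1 and NDUFA4L2 had rows, and both rows held few counts. COX4I2 and COX7B2 had no row under their symbol, so their levels are not known. COX7A1, the heart and muscle form, had 0 and 8 counts in AG and 2 and 4 in GG, and NDUFA4L2, a hypoxia-induced relative of NDUFA4, had 0 and 2 counts in AG and 0 in both GG libraries. Neither passed the filter. COX7C, with 1 count in each AG library and 6 and 12 in GG, and NDUFA1 of complex I, with 2 and 0 counts in AG and 4 and 12 in GG, did not pass it either. Both are known as subunits present in all tissues, and the values of both were not whole numbers wherever they were above 0, so that these rows may hold only part of the genes' reads. No fold is given for these 4 members.

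Among the 7 tested complex IV assembly factors, 1 rose in GG and 0 fell (14.3% called, near the 12.9% of all genes). All 7 had positive fold changes (against 51.1% of all genes), with a median of 1.12. COX11 (ENSMMUG00000010548), which delivers copper to the catalytic subunit 1, stood at 48.6 and 53.1 CPM in AG and at 125 and 111 CPM in GG (log2FC 1.22 ± 0.27 SE, edgeR adjusted p = 0.0425); its call ended with the replicate block. COX10, which makes the heme A precursor, stood at 14.4 and 21.2 CPM in AG and 40.5 and 46.6 CPM in GG (1.29 ± 0.35 SE, adjusted p = 0.0679). COX16, a factor in the building of the copper centre of subunit 2, had the largest value, at 81.3 and 206 CPM in AG and 488 and 359 CPM in GG (1.56 ± 0.48 SE, adjusted p = 0.0859). The AG libraries of COX16 differed by more than 2-fold. DESeq2 called these 3 genes.

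**Figure D2:**
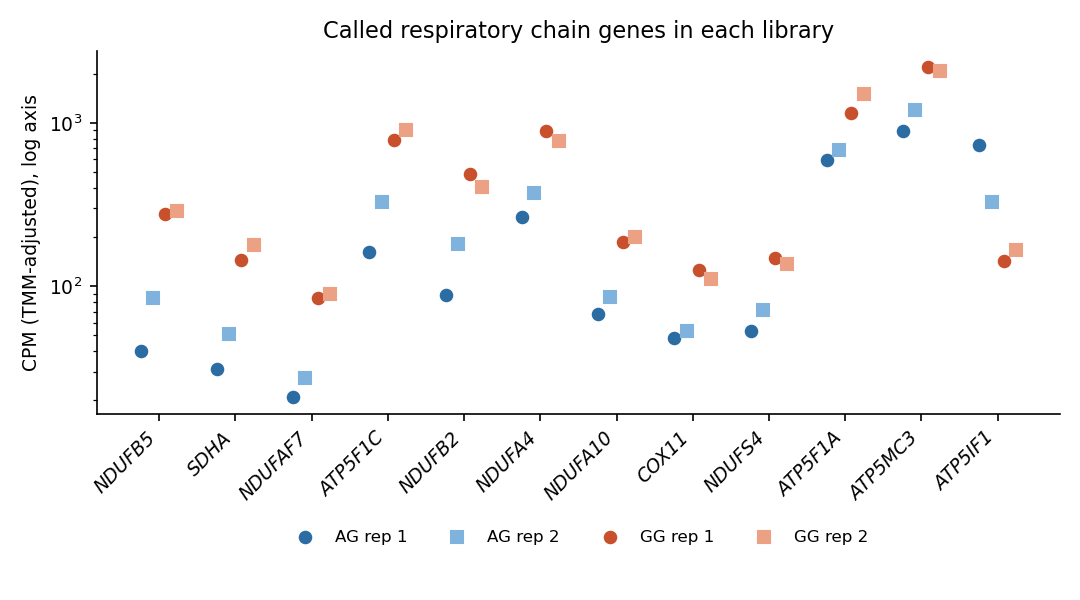
CPM (TMM-adjusted, log axis) of the 12 called respiratory chain genes in each of the 4 libraries, AG in blue and GG in orange, replicate 1 as circles and replicate 2 as squares. In the first 11 genes both GG points lie above both AG points, and in ATP5IF1 they lie below.

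Complex V, the ATP synthase, held 11 members, all tested. Of these, 3 rose in GG, 1 fell and 7 were not called (36.4% called, against 12.9% of all genes). The rotor-stator enzyme has a catalytic F1 head, a ring of c subunits that turns in the membrane, and a peripheral stalk that holds the head. In the F1 head, ATP5F1C (ENSMMUG00000009207), the gamma subunit of the central shaft, stood at 162 and 328 CPM in AG and at 782 and 901 CPM in GG (log2FC 1.78 ± 0.38 SE, edgeR adjusted p = 0.0395). ATP5F1A (ENSMMUG00000003570), the alpha subunit, stood at 588 and 686 CPM in AG and at 1154 and 1505 CPM in GG (1.06 ± 0.24 SE, adjusted p = 0.0453); its call ended without AG replicate 1. ATP5F1B (ENSMMUG00000001027), the catalytic beta subunit and the complex V member with the most reads, stood at 1619.9 and 2540.4 CPM in AG and at 1637 and 2165 CPM in GG. These groups overlapped, and the gene was not called (-0.13 ± 0.30 SE, adjusted p = 0.802), with a positive sign without AG replicate 2 or without GG replicate 1.

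The alpha and beta subunits alternate in the head in equal number. Reads of ATP5F1A relative to those of ATP5F1B, not corrected for transcript length, were 0.363 and 0.270 in AG and 0.705 and 0.695 in GG. For ATP5F1C relative to ATP5F1B the ratios were 0.1003 and 0.129 in AG and 0.478 and 0.416 in GG. The groups did not overlap in either ratio. Both ratios are built from the same values as the calls above and are no separate evidence. With 2 libraries against 2 an exact permutation test cannot go below p = 0.333, so none is given.

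The c ring is encoded by ATP5MC1, ATP5MC2 and ATP5MC3, whose proteins differ in the import sequence and are the same once it is removed. ATP5MC3 (ENSMMUG00000003954) stood at 896 and 1193 CPM in AG and at 2188 and 2090.2 CPM in GG (log2FC 1.03 ± 0.23 SE, edgeR adjusted p = 0.0446); its call ended with the replicate block. ATP5MC2 stood at 89.5 and 163 CPM in AG and at 313 and 347 CPM in GG, just outside the threshold (1.38 ± 0.35 SE, adjusted p = 0.0546), and ATP5MC1 at 304 and 323 CPM against 440.0 and 469 CPM (0.54 ± 0.21 SE, adjusted p = 0.154). All 3 genes had GG libraries above AG libraries, as did 33.4% of all genes. ATP5MC1 gave 23.6% and 19.2% of the c ring reads in AG and 14.96% and 16.1% in GG, while ATP5MC3 gave 69.5% to 74.4% in every library.

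Of the peripheral stalk and other membrane parts, 4 genes were tested. With edgeR 0 were called, beside 12.9% of all genes, and with DESeq2 0, beside 25.2%. An unadjusted p under 0.05 was found for 3, as for 2086 (higher in GG) and 2150 (higher in AG) of all 13227 genes. ATP5PF, ATP5PD, ATP5ME and ATP5MJ, chosen after their values were seen, had log2 fold changes of 0.86 ± 0.29, 0.61 ± 0.21, 0.82 ± 0.27 and 0.19 ± 0.23 (SE). In all 4 the GG libraries lay above the AG libraries, as in 33.4% of all genes.

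ATP5IF1 (ENSMMUG00000018678), the inhibitor that binds the F1 head and blocks ATP hydrolysis when the proton gradient fails, went the other way. It stood at 728 CPM in AG replicate 1, at 327 CPM in AG replicate 2 and at 143 and 166 CPM in GG. Both AG libraries lay above both GG libraries, and the AG libraries differed from each other by more than 2-fold. Its log2 fold change was -1.77 ± 0.42 (SE, edgeR adjusted p = 0.0482), the single call higher in AG. Relative to ATP5F1A, its reads were 1.24 and 0.477 in AG and 0.124 and 0.110 in GG. The call lies close to the threshold and ended with DESeq2 size factors, with upper-quartile scaling and with the replicate block, where 6.52%, 6.4% and 6.22% of all genes were called higher in AG, while the fold change lay between -1.09 without AG replicate 1 and -2.25 without AG replicate 2.

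**Figure D3:**
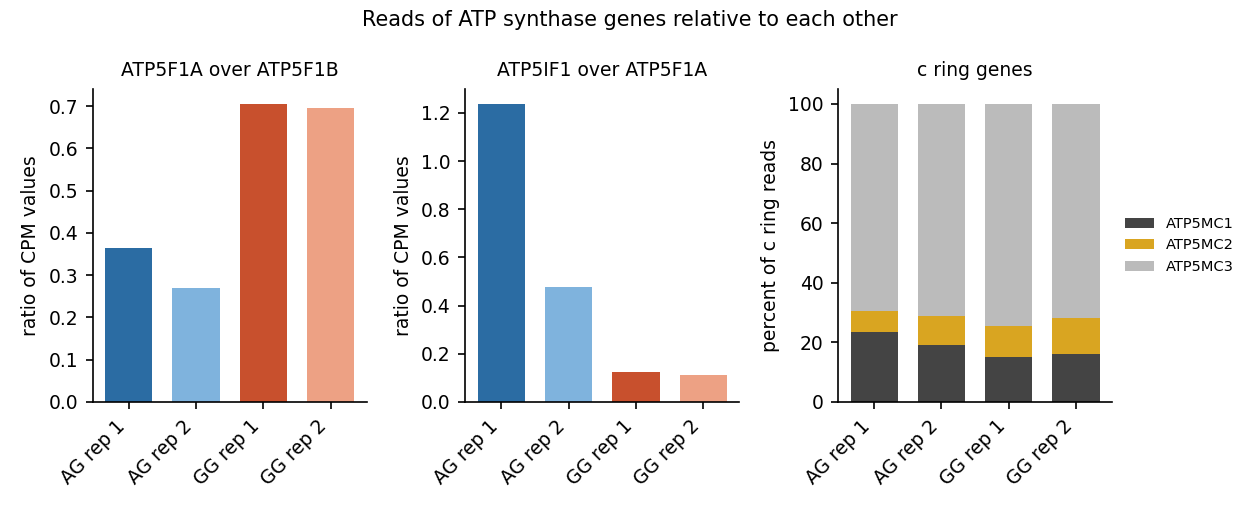
Ratios of CPM values in each library for ATP5F1A over ATP5F1B (left) and ATP5IF1 over ATP5F1A (middle), and the percent of c ring reads from each c ring gene (right), none corrected for transcript length. The first ratio is 0.270 to 0.363 in AG and 0.695 to 0.705 in GG, the second 0.477 to 1.24 in AG and 0.110 to 0.124 in GG.

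Summed by complex, the reads of each group of members were higher in both GG libraries than in both AG libraries. Complex I subunits summed to 3380.4 ± 807 CPM in AG (SD, n = 2) and to 5740.1 ± 149.6 CPM in GG, and complex II to 395 ± 57.1 and 745 ± 3.92 CPM. Complex IV summed to 2945 ± 133 CPM in AG and to 5658 ± 38.2 CPM in GG, while complex V to 6276 ± 1025 and 9154 ± 574 CPM. For complex III, the sums of 505 and 937 CPM in AG came close to those of 1040.1 and 1102 CPM in GG. A sum is led by the genes with most reads, as ATP5F1B in complex V.

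**Figure D4:**
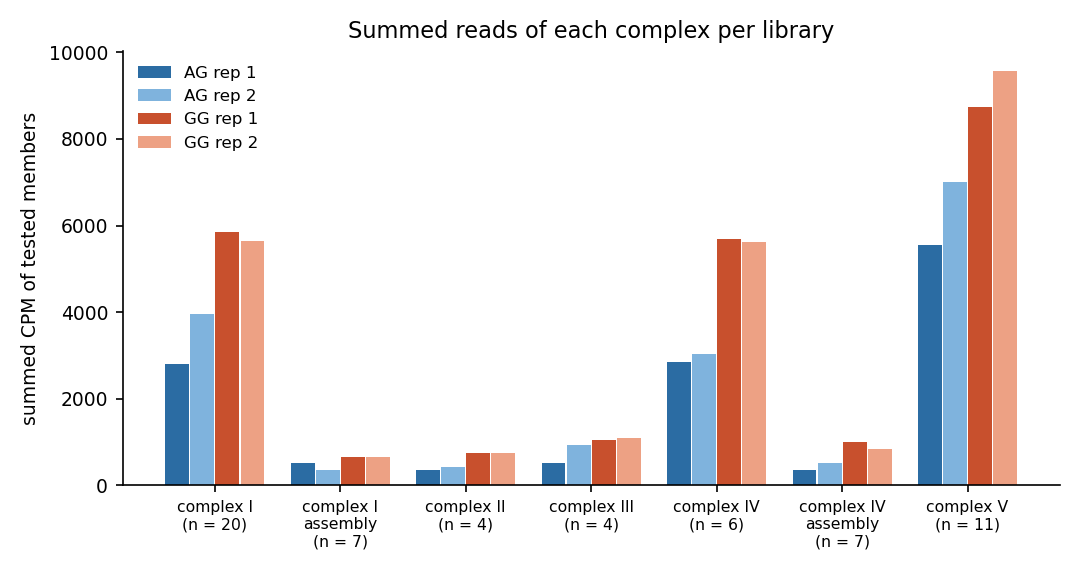
Summed CPM (TMM-adjusted) of the tested members of each complex and of its assembly factors in each library, AG in blue and GG in orange. In each group both GG bars exceed both AG bars, most closely in complex III.

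The AG libraries differed from each other more than the GG libraries did. AG replicate 1 was the lowest of the 4 libraries in 44 of 59 members (74.6%, against 34.8% of all genes). The AG libraries differed by more than 2-fold in 11 members, 9 of them higher in AG replicate 2 and 2, NDUFAF4 and ATP5IF1, higher in AG replicate 1. The GG libraries differed by more than 2-fold in 1 member, UQCRH, whose level is uncertain as said above. Over all genes the corresponding shares were 32.1% for the AG pair and 17.9% for the GG pair. The median log2 ratio of AG replicate 2 to AG replicate 1, with 1 CPM added, was 0.38 over the members and 0.05 over all genes.

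**Figure D5:**
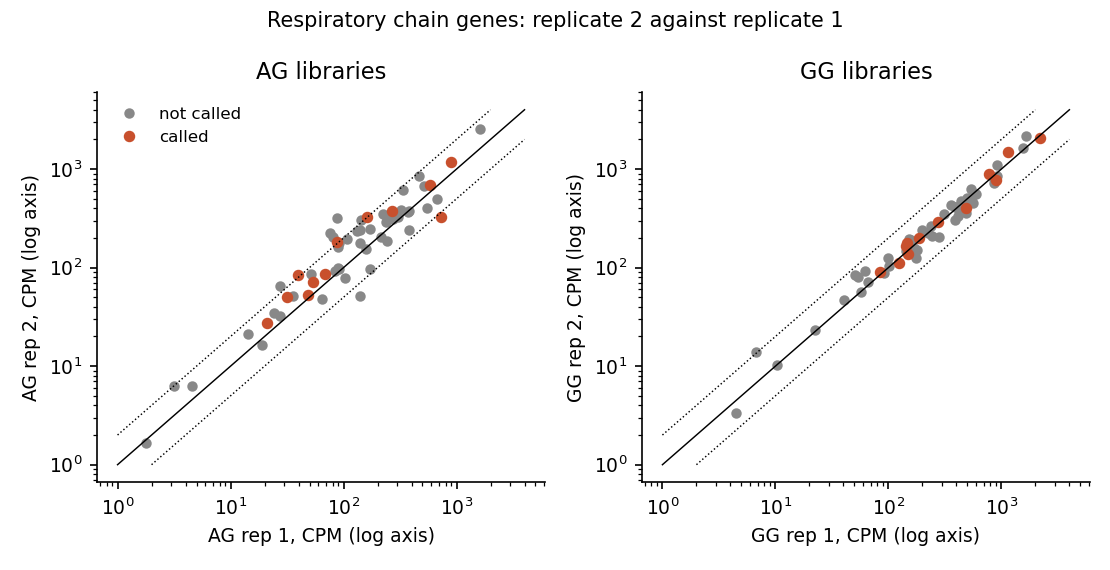
CPM of the 59 tested members in replicate 2 against replicate 1 (both axes log) for AG (left) and GG (right), called members in orange. The solid line is equality and the dotted lines are 2-fold differences, which 11 members exceed in AG and 1 in GG.

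Genes outside the symbol rule that serve the same pathway were taken from lists. Of 18 tested electron carriers and coenzyme Q synthesis genes, 1 rose in GG and 0 fell (5.56% called, under the 12.9% of all genes), and the median log2 fold change was 0.23. The 1 was GPD2, the mitochondrial glycerol-3-phosphate dehydrogenase that feeds coenzyme Q, which stood at 1.28 and 12.7 CPM in AG and at 171 and 199 CPM in GG (log2FC 4.71 ± 1.02 SE, edgeR adjusted p = 0.0411). The list also held CYC1, a complex III subunit outside the symbol rule and so not in the complex III counts and sums above. Named here after its values were seen, it stood at 159 and 306 CPM in AG and 388 and 505 CPM in GG. It was not called (log2FC 0.94 ± 0.37 SE, edgeR adjusted p = 0.149). Of 29 tested assembly factors outside the rule, 1 rose, 1 fell and 27 were not called with edgeR (6.9% called, also under 12.9%), with a median of 0.42. DESeq2 called 9 of these 29 and 4 of the 18 carrier and coenzyme Q genes, beside 25.2% of all genes. Both assembly factors called with edgeR serve complex III. UQCC2, needed for making cytochrome b, stood at 6.98 and 18.4 CPM in AG and at 64.9 and 66.9 CPM in GG (2.37 ± 0.52 SE, adjusted p = 0.0419). BCS1L, which inserts the Rieske iron-sulfur protein, stood at 274 and 232 CPM in AG and at 91.4 and 112 CPM in GG (-1.32 ± 0.26 SE, adjusted p = 0.0343).

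Of 24 tested genes of the citric acid cycle and pyruvate dehydrogenase, 5 rose in GG, 0 fell and 19 were not called (20.8% called, against 12.9% of all genes), with a median of 0.70. SUCLG2, of succinyl-CoA synthetase, stood at 4.27 and 6.09 CPM in AG and at 49.9 and 51.1 CPM in GG (log2FC 3.28 ± 0.37 SE, edgeR adjusted p = 0.0125). IDH2, the mitochondrial NADP-dependent isocitrate dehydrogenase, stood at 6.48 and 7.82 CPM in AG and at 44.5 and 64.0 CPM in GG (2.92 ± 0.38 SE, adjusted p = 0.0162). DLD, the dihydrolipoamide dehydrogenase shared by pyruvate and oxoglutarate dehydrogenase, stood at 450.2 and 442 CPM in AG and at 1321 and 1316 CPM in GG (1.56 ± 0.20 SE, adjusted p = 0.0168). PDHA1, a catalytic subunit of pyruvate dehydrogenase, stood at 379.6 and 198 CPM in AG and at 957 and 1072 CPM in GG (1.81 ± 0.36 SE, adjusted p = 0.0344), and its partner PDHB was the remaining call.

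Regulators of mitochondrial biogenesis and of mitochondrial DNA were not among the calls. Tested were 16, among them factors such as NRF1 and TFAM that drive respiratory chain and mitochondrial transcription. With edgeR 0 were called, beside 12.9% of all genes. DESeq2 called 2, beside 25.2% of all genes, and the median was -0.19. An unadjusted p under 0.05 was found for 4, named here after their values were seen, and their directions differed. TFAM was higher in GG (log2FC 0.80 ± 0.24 SE). NRF1 (-0.99 ± 0.37 SE), PPRC1 (-1.17 ± 0.32 SE) and PPARGC1B (-1.90 ± 0.51 SE) were higher in AG. Of the 13 mitochondrially encoded subunits, 0 matched a row by symbol, and they were not analysed here.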

How the data were processed

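RNA of 4 morula libraries (2 AG, 2 GG) was analysed from a deposited table of estimated counts of reads per Ensembl gene, not scaled to library size; between 30.0% and 32.2% of values per library are not whole. Trim Galore, STAR 2.6.0c, Salmon 0.12.0 and rheMac8 are named in the submitters' processing notes, without role or order; annotation release, strand setting and filters: not given in the sources used here. Because such counts share reads out between similar transcripts, genes with near copies are uncertain, and 34 of 59 tested members, 7 of the 12 called, had values that were not whole in some library.

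Symbols were matched by Ensembl identifier. The RefSeq gene table, of another assembly, served for names alone. Counts were rounded and tested over all 13227 genes passing filterByExpr (minimum count 10, minimum total 15) with edgeR 4.0.16 in R 4.3.3 (quasi-likelihood F test, TMM, group alone, Benjamini-Hochberg adjustment, threshold 0.05), after a test on simulated data. CPM use library totals over tested genes after TMM adjustment. Standard errors were derived from the F statistic. Counts carry no molecular identifiers in the labels, so depth limits counting error only.

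Members, lists and alternatives were chosen with earlier results of these data known. Named members are those called, the 3 with the smallest p and the one with most reads in each complex, isoform pairs and those failing the filter; from each list, up to 4 called genes; others are marked in the text. DESeq2 1.42.0, other scalings and filters, thinning, the replicate block and leaving out each library were tried. Values of 1 member are not reported here singly; it stays in all counts and sums.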

Additional observations from a re-analysis of the deposited data

How the results depend on the processing

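The members' median log2 fold change was positive in all 12 alternatives (0.68 to 1.04, against 0.79), and no called member changed sign. The count of called members (12 in the main analysis) was 23 with DESeq2 (22 higher in GG), and leaving out 1 library in turn gave 0 to 36, with 0 to 35 higher in GG and 0 to 2 higher in AG. The 1 call higher in AG, ATP5IF1, became 0 with DESeq2 size factors, 0 with upper-quartile scaling and 0 with the replicate block. Over all genes, 1709 were called, 2609 without a filter on low counts, 3333 with DESeq2 and 84 to 3786 when leaving out 1 library. On the accompanying lists, 8 genes were called, and the number was 15 without a filter, 14 with a minimum mean of 10 CPM, 23 with DESeq2 and 0 to 31 when leaving out 1 library. These lists are the carriers and coenzyme Q genes, the outside assembly factors, the citric acid cycle genes and the biogenesis regulators. In this order they held 18, 29, 24 and 16 tested genes. In the main analysis 5.56%, 6.9%, 20.8% and 0% of them were called, beside 12.9% of all genes. DESeq2 called 4, 9, 8 and 2 of them, beside 25.2% of all genes. Signs turned in 7 members that were not called, named here for that reason, and in no other tested member. Their ranges when leaving out 1 library were -0.43 to 0.22 for ATP5F1B (0.06 without GG replicate 1), -0.61 to 0.92 for NDUFB8 (0.16 with the replicate block), -0.95 to 0.91 for UQCRB, -0.63 to 0.19 for NDUFAF1, -0.14 to 0.37 for NDUFA6, -0.018 to 0.94 for NDUFS1 and -0.10 to 0.52 for COX15. The cause was not tested.

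Equal replicate numbers are not said in the labels to mark a shared animal or day, and the within-group deviations correlated at 0.094 across genes. With the replicate block, 10 members were called, all higher in GG; of the 12 calls, 8 were kept and ATP5IF1, ATP5MC3, COX11 and NDUFS4 were lost, while ATP5MC2 and COX4I1 were added. The number of libraries, more than depth, limits precision.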

Other observations

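Other mitochondrial gene groups, listed after the data were seen, are given for their counts. Of 11 tested genes of the cristae-organising MICOS complex and its partners, 1 rose in GG and 0 fell (9.09% called, against 12.9% of all genes), and 10 had positive log2 fold changes with a median of 0.86. The called gene was MTX2, an outer membrane protein, at 37.8 and 53.9 CPM in AG replicates 1 and 2 and 112 and 123 CPM in GG (log2FC 1.36 ± 0.31 SE, edgeR adjusted p = 0.0450). Of 17 tested genes of mitochondrial protein import, 2 rose, 0 fell and 12 were positive (11.8% called, near the 12.9% of all genes), with a median of 0.16. These were TIMM8B, a chaperone of the intermembrane space, at 85.3 and 122.5 CPM in AG and 321 and 304 CPM in GG (1.59 ± 0.28 SE, adjusted p = 0.0281), and TIMM17B, of the inner membrane channel, at 102 and 135 CPM against 257 and 291 CPM (1.21 ± 0.27 SE, adjusted p = 0.0419). Adenine nucleotide and phosphate carriers and porins, which move ADP, ATP and phosphate to and from the ATP synthase, were listed with UCP2 and CKMT2. Of the 7 tested genes on this list, 0 were called with edgeR or DESeq2, beside 12.9% and 25.2% of all genes. An unadjusted p under 0.05 was found for 1. Over all 13227 genes, 2086 passed that level in the GG direction and 2150 in the AG direction. Whether these 7 genes differ from all genes in this was not tested. Of the 7, 3 were positive (against 51.1% of all genes), with a median of -0.03. The median over all tested genes was 0.04.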
